A study of Drosophila melanogaster with 16 samples.

Results

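Genes of the EGFR and FGF signalling pathways were followed through 4 Polycomb group mutants of the Drosophila eye disc. A total of 10 genes were chosen by name: ru, rho, spi, aos, Egfr, vn, sty, pnt, pyr and ths. They are 10 of the 6774 genes listed in at least 1 of the 4 deposited tables, and each of them was found in at least 1 table by its FlyBase identifier. RNA-seq of eye discs from L3 larvae covered the mutants Ez731 and Suz12 (both on FRT2A), PH505 (on FRT19A) and Psc Suz2 1.b8 (on FRT42D), against wild-type controls that carry FRT2A, FRT19A or FRT42D. FRT is the target site of a yeast recombinase that is used to make cells homozygous for an allele, so every mutant and control group shares the presence of such a site. The labels give no driver of recombination, so whether a whole disc or part of it was mutant is unknown here. E(z) and Su(z)12 are subunits of PRC2, which methylates histone H3 at lysine 27, and ph, Psc and Su(z)2 encode subunits of PRC1. For every group a single deposited value per gene covers replicates 1 and 2 (n = 1 sample per group), so no spread between replicates can be given.

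The EGF receptor of Drosophila is a receptor tyrosine kinase that recruits, one after another, the photoreceptors of the eye behind a wave of differentiation called the morphogenetic furrow. Its main ligand, Spitz (spi), is made as an inactive membrane protein and must be cut by rhomboid proteases such as Rhomboid (rho) and Roughoid (ru) before it can be secreted. The signal runs through Ras and MAP kinase to the ETS transcription factor Pointed (pnt), and it induces its own inhibitors, among them Argos (aos) and Sprouty (sty). Pyramus (pyr) and Thisbe (ths) are FGF8-like ligands of the FGF receptor Heartless (htl), which acts in muscle precursors and in the glia of the eye disc.

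The tables hold only genes under a 5% false discovery rate, so a gene that is not listed has no value here and is not called unchanged. Folds are log2 values of mutant over control, as deposited, and the adjusted p is that of the authors' edgeR test. A standard error (SE, in log2 units) was worked out from each fold and its p by a normal approximation, and it carries the authors' own estimate of the spread. That spread may be technical only. An SE or interval of a difference between mutants rests on it and is no test of that difference. Levels in CPM (read counts scaled to a common library total) for the mutant and the control group were recovered from the deposited log2 fold and log2 CPM. The 2 tables that share the FRT2A control allowed a check of this step. Over the 631 genes in both, the FRT2A level from the Ez731 table differed from that of the Suz12 table by a median of 0.018 on the log2 scale (SD 0.01), and by at most 0.027 for 95% of the genes. The tables hold no read totals, so the depth behind each level is unknown.

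**Figure D1:**
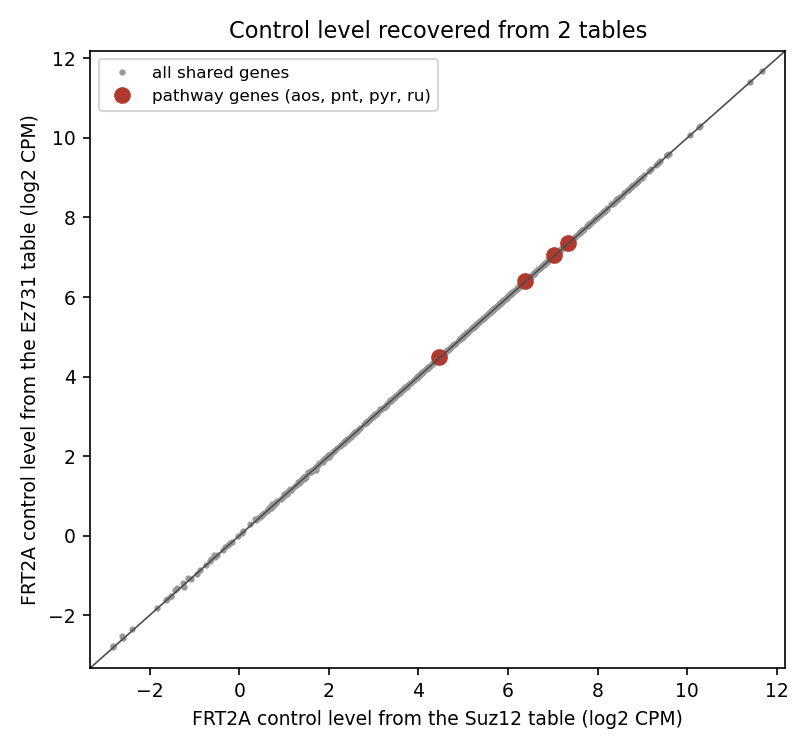
Level of the FRT2A control (log2 CPM) recovered from the Ez731 table (vertical axis) against that from the Suz12 table (horizontal axis), 1 point for each of 631 genes in both tables, with the 4 pathway genes in both (aos, pnt, pyr, ru) in red and the line of equal values. The points lie on the line, with a median absolute difference of 0.018 log2 units.

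The targeted genes were looked up before the pathway. E(z) fell to 28.6 CPM in Ez731 discs, against 57.1 CPM in FRT2A discs, a log2 fold of −0.99 in the authors' deposited table (edgeR adjusted p = 8.29e-12). Psc fell to 8.75 CPM in Psc Suz2 discs, against 134 CPM in FRT42D discs, a log2 fold of −3.94 in the authors' deposited table (edgeR adjusted p = 9.33e-242). Su(z)12 is not listed in the Suz12 table, and Su(z)2 could not be matched, because its current identifier is newer than any in the tables. In the table labelled PH505, ph-p stood at 275 CPM in mutant and 161 CPM in FRT19A discs and ph-d at 123 CPM in mutant and 65.8 CPM in FRT19A discs, so neither ph gene was lower in the mutant. The direction of that table was therefore checked on its control level. Over the 1977 genes it shares with the Psc Suz2 table, its control lay a median of 0.185 log2 units from the FRT42D control when read as mutant over control, and 0.568 when the table was turned round.

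Of the 10 genes, 5 were listed in the Ez731 table (9.87% of all 8934 genes tested were listed), 6 in the Suz12 table (14.6% of 8907), 8 in the table labelled PH505 (26.7% of 8804) and 8 in the Psc Suz2 table (69.4% of 8886). The last share is near its background, and the other 3 counts are above theirs. The 10 genes and all lists used here were chosen with earlier results of these data known. A count above background is therefore not read as a result about them. Most listed values were lower in the mutant. In Ez731, 3 genes fell (6.41% of all genes were lower) and 2 rose (3.46% higher), and in Suz12, 5 fell (8.73%) and 1 rose (5.89%). In the table labelled PH505, 8 fell (14.6%) and 0 rose (12.1%), and in Psc Suz2, 6 fell (33.9%) and 2 rose (35.5%). At least 2-fold lower were 5 of the 10 genes in Psc Suz2 (16.7% of all genes) and 2 in the table labelled PH505 (6.19%). In Suz12 there were 2 (5.11%) and in Ez731 0 (3.44%). Psc Suz2 had the highest count and also the highest share of all genes. At least 2-fold higher was 1 gene in Psc Suz2 (11.2% of all genes), against 0 in the table labelled PH505 (3.09%), 0 in Suz12 (2.4%) and 0 in Ez731 (1.72%). Over the 40 pairs of gene and table, 27 held a value, 22 lower and 5 higher, and the SE of the 26 that have one ran between 0.075 and 0.21. Median log2 folds of the listed members were −0.55, −0.72, −0.88 and −2.22 in Ez731, Suz12, the table labelled PH505 and Psc Suz2, beside −0.66, −0.53, −0.35 and 0.21 for all genes listed in each table.

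**Figure D2:**
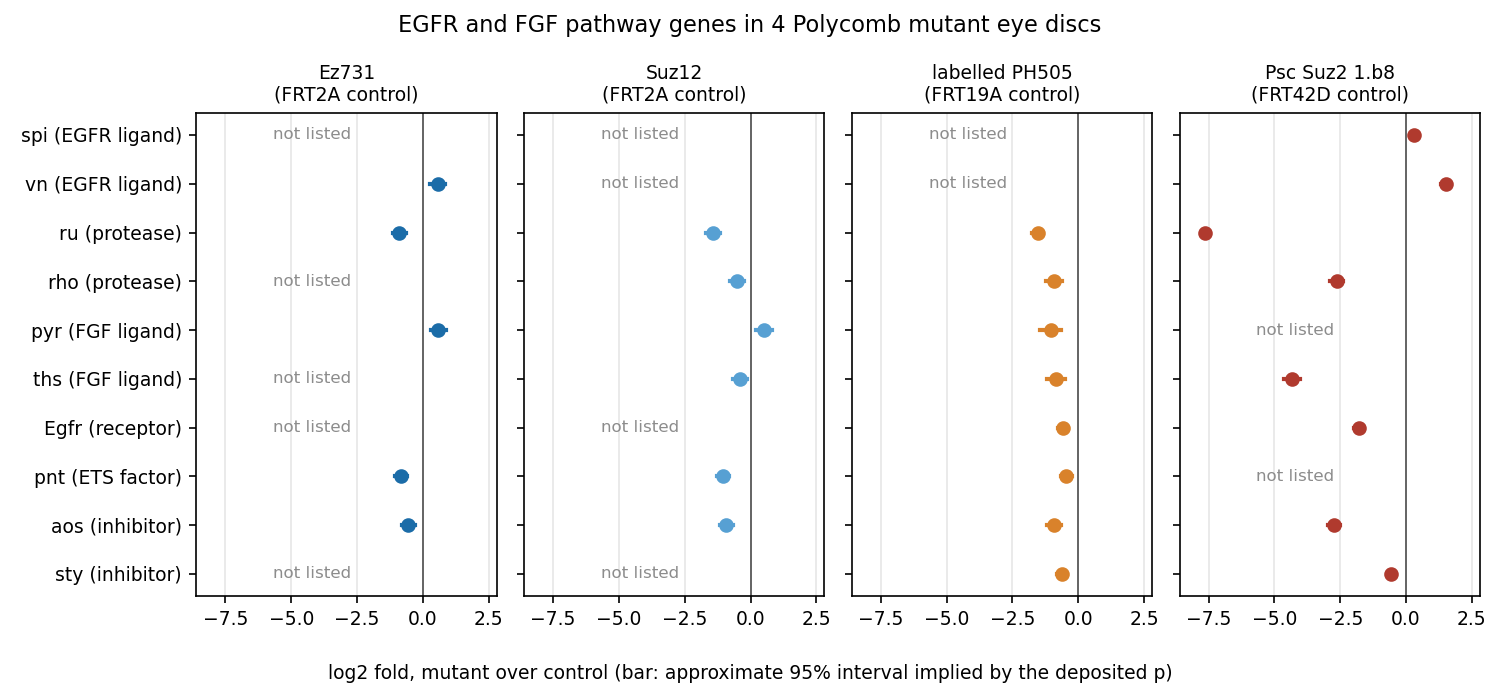
Deposited log2 fold of mutant over control (horizontal axis) for the 10 genes, 1 panel for each mutant, with bars for the approximate 95% interval implied by the deposited p. Bars narrower than the point are hidden, ru in Psc Suz2 has none because its p is listed as 0, and genes missing from a table are marked as not listed. ru is the lowest point in each of the 4 panels, with −7.65 in Psc Suz2, and pyr is right of 0 in Ez731 and Suz12 and left of it in the table labelled PH505.

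The protease gene ru (FBgn0003295) fell in all 4 mutants, and in Psc Suz2 its transcript was almost lost. Recovered levels were 71 CPM in Ez731 and 132 CPM in FRT2A discs, 48.5 CPM in Suz12 and 130 CPM in FRT2A discs, 52.8 CPM in discs labelled PH505 and 154 CPM in FRT19A discs, and 0.61 CPM in Psc Suz2 and 122 CPM in FRT42D discs. The control levels thus lay close together, and Psc Suz2 discs held 0.499% of theirs, against 53.8%, 37.2% and 34.3% in Ez731, Suz12 and the discs labelled PH505. The authors' deposited tables give log2 folds of −0.89 (SE 0.12), −1.43 (SE 0.13), −1.54 (SE 0.11) and −7.65 (edgeR adjusted p = 2.52e-11, 2.97e-26, 1.88e-46 and, for Psc Suz2, listed as 0). No SE can be had from a p of 0. By size of fold ru was number 7 of the 3016 genes lower in Psc Suz2, but number 342 of 573 in Ez731, 283 of 778 in Suz12 and 212 of 1285 in the table labelled PH505.

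The second protease gene, rho (FBgn0004635), encodes the founding member of the rhomboid family and fell in 3 mutants, by a smaller fold than ru in each. Its levels were 51.2 CPM in Suz12 and 73.5 CPM in FRT2A discs, 36.6 CPM in discs labelled PH505 and 69.5 CPM in FRT19A discs, and 10.6 CPM in Psc Suz2 and 65.8 CPM in FRT42D discs. Its log2 folds in the authors' deposited tables were −0.52 (SE 0.14, edgeR adjusted p = 0.00165), −0.93 (SE 0.15, 2.72e-08) and −2.63 (SE 0.13, 2.98e-91). It is not listed in the Ez731 table, where 95% of the 123 listed genes of like expression had a fold of 0.42 or more in size. The fold in Psc Suz2 lay 1.71 below that in the table labelled PH505 (SE of the difference 0.2), and these mutants have separate controls.

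The ligand genes spi and vn were higher in the mutant wherever they were listed. For spi (FBgn0005672) the only value is in Psc Suz2, where it stood at 285 CPM, against 227 CPM in FRT42D discs, a log2 fold of 0.32 in the authors' deposited table (SE 0.075, edgeR adjusted p = 3.48e-05). A change to 125% of control, it ranked 2756 of the 3154 genes that rose there. The gene vn (FBgn0003984) encodes Vein, a neuregulin-like ligand that is secreted without rhomboid cleavage. It rose to 40.5 CPM in Ez731, against 27.4 CPM in FRT2A discs, and to 78.5 CPM in Psc Suz2, against 27.4 CPM in FRT42D discs. The authors' deposited tables give log2 folds of 0.56 (SE 0.14, edgeR adjusted p = 0.00167) and 1.52 (SE 0.1, 1.86e-50). The fold in Ez731 lay 0.95 below that in Psc Suz2 (approximate 95% interval of the difference −1.30 to −0.61). It is not listed in the Suz12 table or the one labelled PH505. The ligand gene Krn, which encodes the Spitz-like Keren, was lower in the table labelled PH505 and in Psc Suz2 (log2 folds of −0.52 and −0.69 in the authors' deposited tables).

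The receptor gene Egfr (FBgn0003731) fell in the 2 PRC1 mutants. It stood at 306 CPM in discs labelled PH505 and 464 CPM in FRT19A discs, and at 125 CPM in Psc Suz2 and 436 CPM in FRT42D discs. Log2 folds in the authors' deposited tables were −0.60 (SE 0.098, edgeR adjusted p = 1.86e-08) and −1.80 (SE 0.09, 8.30e-89), which differ by 1.20 (approximate 95% interval 0.94 to 1.46). Neither PRC2 table lists Egfr. Among listed genes of like expression the smallest change in those tables was 0.35 in Ez731 and 0.32 in Suz12, and the median was 0.61 and 0.56. These sizes come from called genes only, so they do not show what Egfr needed to be listed. Whether Egfr changed in the PRC2 mutants is unknown.

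The effector gene pnt (FBgn0003118) showed another order of mutants, with lower levels in both PRC2 mutants and in the table labelled PH505 and no value in Psc Suz2. It stood at 90.8 CPM in Ez731 and 163 CPM in FRT2A discs, 77.6 CPM in Suz12 and 161 CPM in FRT2A discs, and 97.7 CPM in discs labelled PH505 and 133 CPM in FRT19A discs. The authors' deposited tables give log2 folds of −0.84 (SE 0.11, edgeR adjusted p = 1.37e-11), −1.05 (SE 0.12, 3.84e-17) and −0.45 (SE 0.1, 6.64e-05). The Suz12 fold was lower than that of the table labelled PH505 by 0.60 (approximate 95% interval of the difference −0.91 to −0.30), and the Ez731 fold by 0.39 (−0.69 to −0.10). The control of pnt was itself higher in FRT2A (163 and 161 CPM) than in FRT19A discs (133 CPM). Its part in these differences was not tested. In Psc Suz2, 95% of the 1021 listed genes of like expression had a fold of at least 0.21 in size, and pnt is not among them.

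Of the inhibitors, aos (FBgn0004569), whose secreted product binds Spitz and keeps it from the receptor, fell in all 4 mutants. Its levels were 57.7 CPM in Ez731 and 84.2 CPM in FRT2A discs, 43.9 CPM in Suz12 and 83.2 CPM in FRT2A discs, 49.3 CPM in discs labelled PH505 and 93.2 CPM in FRT19A discs, and 14 CPM in Psc Suz2 and 93.8 CPM in FRT42D discs. Log2 folds in the authors' deposited tables were −0.55 (SE 0.12), −0.92 (SE 0.12), −0.92 (SE 0.14) and −2.74 (SE 0.12), with edgeR adjusted p of 0.000204, 1.47e-12, 2.88e-10 and 1.76e-122. The folds in Suz12 and in the table labelled PH505 were alike (approximate 95% interval of the difference −0.36 to 0.35). That in Psc Suz2 lay 1.82 below the one in the table labelled PH505 (1.48 to 2.17).

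The gene sty (FBgn0014388), whose product dampens signalling of several receptor tyrosine kinases inside the cell, fell in the PRC1 mutants by nearly the same amount. It stood at 104 CPM in discs labelled PH505 and 158 CPM in FRT19A discs, and at 117 CPM in Psc Suz2 and 174 CPM in FRT42D discs. The authors' deposited tables give log2 folds of −0.61 (SE 0.099, edgeR adjusted p = 1.28e-08) and −0.57 (SE 0.079, 2.75e-12), with an approximate 95% interval of the difference of −0.29 to 0.21. Unlike rho, aos, Egfr and ths, it thus showed no larger fall in Psc Suz2. It is not listed in either PRC2 table.

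**Figure D3:**
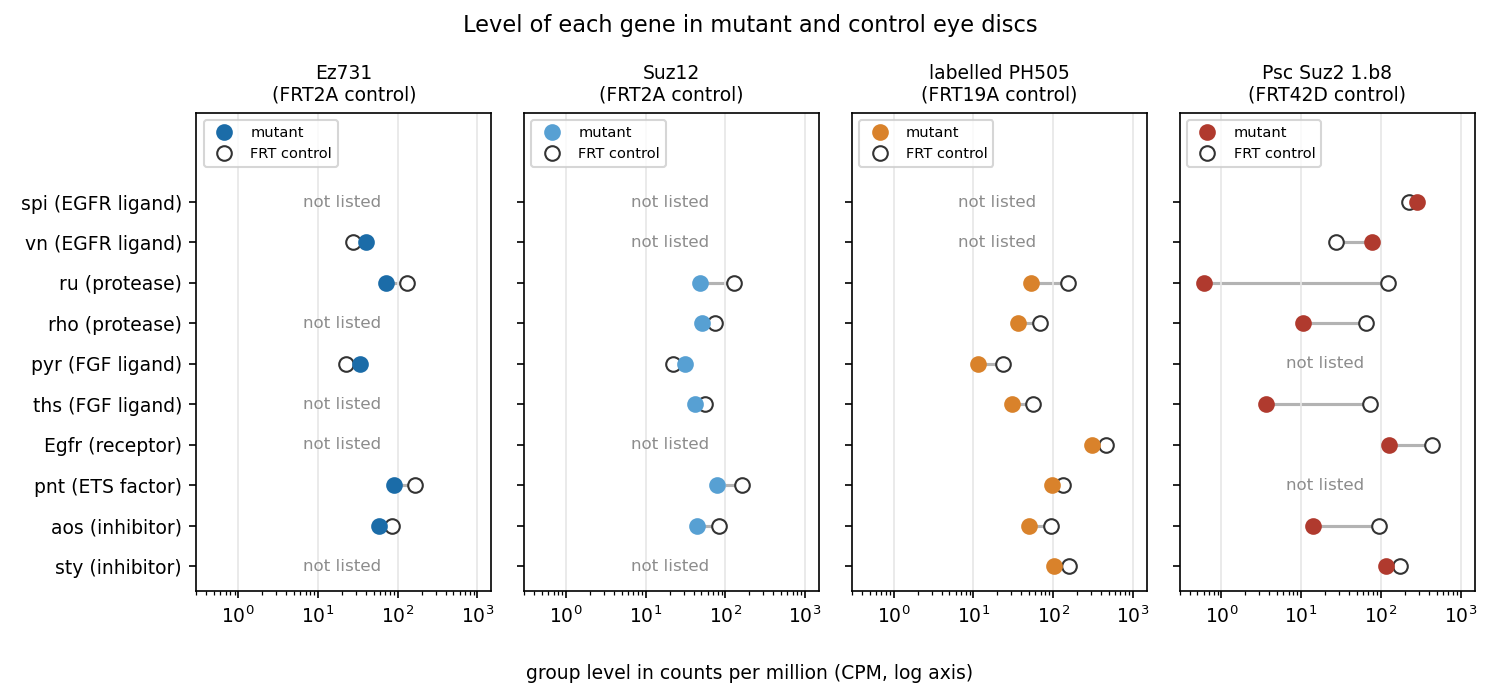
Group level of each gene in CPM (horizontal log axis), filled points for the mutant and open points for its FRT control, 1 panel for each mutant. Levels were recovered from the deposited fold and mean expression, and genes missing from a table are marked as not listed. The control points of a gene sit at nearly the same place in every panel, while the mutant points of ru (0.61 CPM) and ths (3.60 CPM) in Psc Suz2 lie far to the left.

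The FGF ligand genes pyr and ths lie next to each other, with 0 protein-coding genes between them in the Release 6 annotation. Both were lower in the table labelled PH505, and in Suz12 they were listed in opposite directions. In Ez731 only pyr was listed, and in Psc Suz2 only ths. The gene ths (FBgn0033652) was lower wherever it was listed. It stood at 41.5 CPM in Suz12 and 54.8 CPM in FRT2A discs, 30.7 CPM in discs labelled PH505 and 55.5 CPM in FRT19A discs, and 3.60 CPM in Psc Suz2 and 72.3 CPM in FRT42D discs. Log2 folds in the authors' deposited tables were −0.40 (SE 0.14, edgeR adjusted p = 0.0347), −0.85 (SE 0.17, 8.45e-06) and −4.33 (SE 0.15, 8.96e-177), so that Psc Suz2 discs held 4.98% of the control level. The Suz12 call does not pass a 1% false discovery rate.

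The neighbour pyr (FBgn0033649) rose in both PRC2 mutants and fell in the table labelled PH505. It stood at 33.7 CPM in Ez731 and 22.4 CPM in FRT2A discs, 31.6 CPM in Suz12 and 22.2 CPM in FRT2A discs, and 11.4 CPM in discs labelled PH505 and 23.6 CPM in FRT19A discs. The authors' deposited tables give log2 folds of 0.59 (SE 0.15, edgeR adjusted p = 0.00124), 0.51 (SE 0.15, 0.00539) and −1.05 (SE 0.21, 4.78e-06). The Ez731 and Suz12 folds share the FRT2A control and are not independent. In Psc Suz2, where ths fell most, pyr is not listed, and 95% of the 935 listed genes of like expression there had a fold of 0.31 or more in size. It is the only one of the 10 genes that was listed in both directions.

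Control levels varied little between strains. Over the tables that list a gene, the highest control level was at most 1.32 times the lowest (ths), and for vn, pyr and Egfr at most 1.06 times. In bulk RNA fewer cells of a type and less RNA per cell cannot be told apart, which holds for every fall given here. Between genes, levels are not compared, since CPM does not allow for transcript length.

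The wider pathway was counted on a list of 50 genes that includes the 10. Identifiers of 46 could be compared with the tables; btl, cnk and Src42A have identifiers newer than any in the tables, and Gap1 had no match by symbol. Of the 46, 12 were listed in Ez731 (9.87% of all genes tested), 17 in Suz12 (14.6%), 21 in the table labelled PH505 (26.7%) and 41 in Psc Suz2 (69.4%). Lower were 9 in Ez731 (6.41% of all genes), 15 in Suz12 (8.73%), 19 in the table labelled PH505 (14.6%) and 31 in Psc Suz2 (33.9%). Median log2 folds of the listed genes were −0.70, −0.92, −0.85 and −0.57, beside −0.66, −0.53, −0.35 and 0.21 for all genes listed in each table. Without the 10 members, 6 of 7, 10 of 11, 11 of 13 and 25 of 33 listed genes were lower, in the same order of mutants. Among all listed genes, 573 of 882, 778 of 1303, 1285 of 2349 and 3016 of 6170 were lower.

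Among nuclear effectors and eye targets, phyl had the largest fall of the wider list in Ez731 and Suz12 and the largest after ru in the table labelled PH505 and in Psc Suz2. The gene, whose product helps to degrade the repressor Tramtrack in photoreceptor precursors, stood at 21.3 CPM in Ez731 and 49 CPM in FRT2A discs, and at 0.53 CPM in Psc Suz2 and 43.2 CPM in FRT42D discs. Log2 folds of phyl in the authors' deposited tables were −1.20, −2.15, −1.36 and −6.35 in Ez731, Suz12, the table labelled PH505 and Psc Suz2 (edgeR adjusted p = 5.19e-13, 7.94e-40, 2.39e-13 and 1.23e-142). For lz, a Runx factor of the later photoreceptors and cone cells, the authors' deposited tables give −1.08, −1.80 and −2.42 in Ez731, Suz12 and Psc Suz2 (edgeR adjusted p = 4.34e-16, 1.39e-41 and 9.39e-111). In discs labelled PH505 lz stood at 63.8 CPM, against 128 CPM in FRT19A discs (edgeR adjusted p = 5.38e-17 in the authors' deposited table). The homeodomain gene pros fell in Ez731, Suz12 and Psc Suz2 (−1.04, −1.72 and −2.28 in the authors' deposited tables). The Pax2 gene sv, a target in cone cells, fell in Suz12 and in the table labelled PH505 (−1.04 and −0.87 in the authors' deposited tables) and rose in Psc Suz2 (1.07). The repressor gene ttk, which encodes Tramtrack, fell in the table labelled PH505 and in Psc Suz2 (−0.55 and −0.28 in the authors' deposited tables). The Iroquois gene mirr rose in Ez731 and in the table labelled PH505 (0.57 and 0.54 in the authors' deposited tables) and fell in Psc Suz2 (−1.45).

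Of the listed negative regulators, 2 of 2 were lower in Ez731, 3 of 4 in Suz12, 4 of 4 in the table labelled PH505 and 11 of 12 in Psc Suz2, beside the 573 of 882, 778 of 1303, 1285 of 2349 and 3016 of 6170 lower among all listed genes. In Ez731, Suz12 and the table labelled PH505 these are counts of few genes, and nothing is read from them. The gene aop encodes Yan, the ETS repressor that competes with Pointed, and it fell in all 4 mutants, with log2 folds of −0.71, −0.94, −0.72 and −1.09 in the authors' deposited tables (edgeR adjusted p = 1.06e-07, 4.36e-13, 6.64e-13 and 3.75e-40). The gene edl, whose product binds and inhibits ETS factors, fell in the table labelled PH505 and in Psc Suz2 (−0.88 and −2.58 in the authors' deposited tables). RasGAP1, which encodes a GTPase activator of Ras, fell in Suz12 and Psc Suz2 (−0.60 and −0.95 in the authors' deposited tables), and kek2 fell in Psc Suz2 (−2.01 in the authors' deposited table). The MAP kinase phosphatase gene Mkp3 was the exception, higher in Suz12 and Psc Suz2 (0.37 and 0.66 in the authors' deposited tables).

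Of 11 genes of the chain between receptor and nucleus with a comparable identifier, 1 was listed in Ez731 (9.87% of all genes), 0 in Suz12 (14.6%), 1 in the table labelled PH505 (26.7%) and 10 in Psc Suz2 (69.4%). Only in Psc Suz2 were most of them listed, and most of all genes tested were listed there too. In Psc Suz2, 8 of the 10 were lower, among them Ras85D with a log2 fold of −0.39, Raf with −0.60 and the MAP kinase kinase gene Dsor1 with −1.03 in the authors' deposited table. The adaptor gene drk was higher there, at 0.63 in the authors' deposited table. The largest fall was that of stumps, which encodes an adaptor that works with the FGF receptors. It stood at 28.8 CPM in discs labelled PH505 and 48.9 CPM in FRT19A discs, and at 8.20 CPM in Psc Suz2 and 48.9 CPM in FRT42D discs, with log2 folds of −0.76 and −2.58 in the authors' deposited tables (edgeR adjusted p = 0.000632 and 1.08e-64).

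The FGF receptor gene htl moved the other way from its ligand gene ths in Psc Suz2. It fell in Ez731, Suz12 and the table labelled PH505 (log2 folds of −0.68, −0.66 and −0.89 in the authors' deposited tables, edgeR adjusted p = 0.013, 0.0104 and 0.00188) and rose in Psc Suz2, to 32.6 CPM, against 14.1 CPM in FRT42D discs (1.21 in the authors' deposited table, edgeR adjusted p = 7.33e-13). The Ez731 and Suz12 calls do not pass a 1% false discovery rate. Markers of cells that can be taken along with a disc are given here beside htl. Listed blood cell markers fell in 5 of 5, 6 of 6 and 4 of 4 cases in Ez731, Suz12 and the table labelled PH505 and rose in 6 of 6 in Psc Suz2, where their summed level was 497 CPM, against 171 CPM in FRT42D discs. Of 4 myoblast markers, 3 rose in Psc Suz2 (twi, Mef2 and zfh1), with a summed level of 464 CPM, against 84.2 CPM in FRT42D discs. Most of that sum was zfh1, at 372 CPM in Psc Suz2 and 30 CPM in FRT42D discs. In the table labelled PH505, where htl fell, zfh1 was higher and twi lower (log2 folds of 2.09 and −1.79 in the authors' deposited table), and 0 of 4 myoblast markers were listed in Ez731 and in Suz12. Listed muscle markers were lower in 4 of 4, 4 of 4, 6 of 6 and 4 of 5 cases in Ez731, Suz12, the table labelled PH505 and Psc Suz2. The exception, Mlc2, had log2 folds of −1.01, −1.26, −0.62 and 1.15 in the authors' deposited tables, in that order of mutants. Listed fat body markers were lower in 5 of 5, 5 of 5, 5 of 5 and 1 of 2 cases. Tracheal markers had 0 listed in Ez731, and 1 of 1, 1 of 2 and 3 of 3 were higher in the others. Of 6 glial markers, 3 rose and 3 fell in Psc Suz2, with the barrier glia gene moody higher (log2 fold 1.70 in the authors' deposited table), and the pan-glial gene repo stood at 3.35 CPM in Psc Suz2 and 25.3 CPM in FRT42D discs. The glial marker loco had log2 folds of −0.44, −0.73, −0.46 and 0.19 in Ez731, Suz12, the table labelled PH505 and Psc Suz2. The part of these cells in the htl values was not tested.

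**Figure D4:**
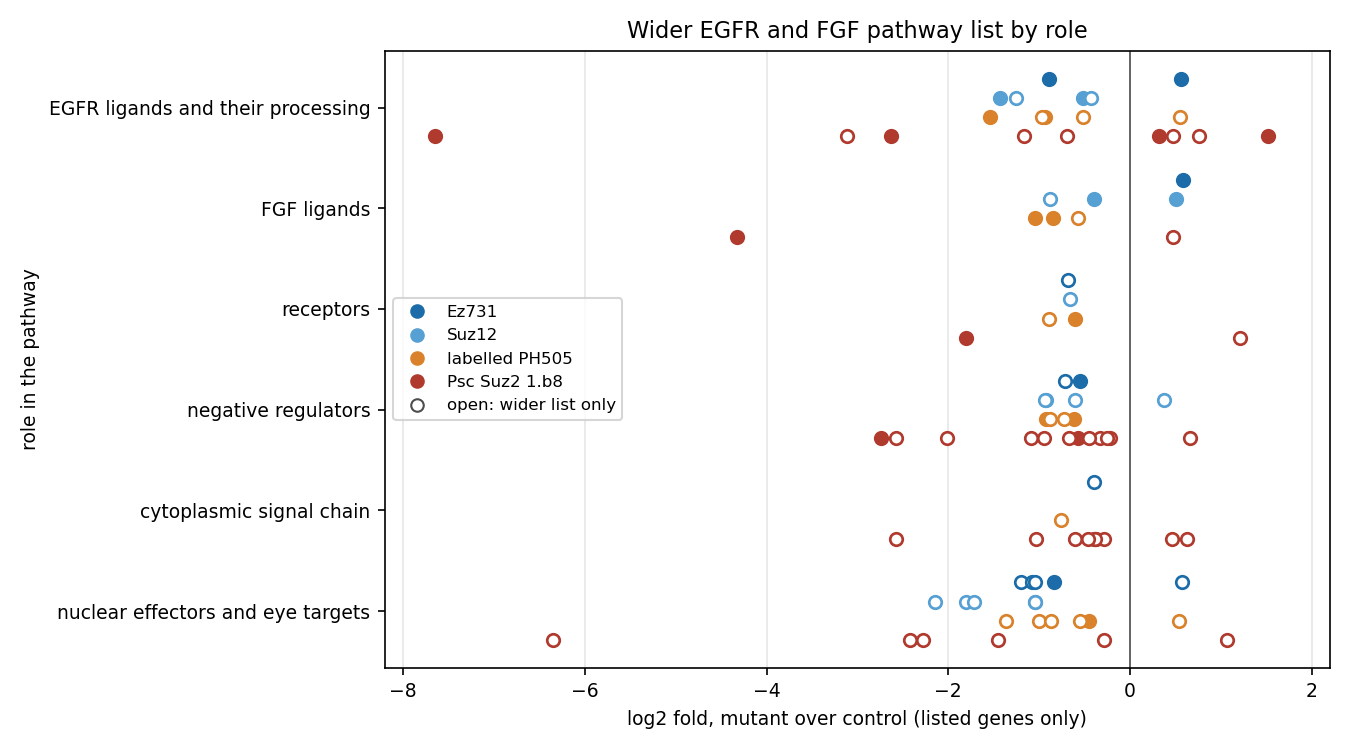
Deposited log2 folds of mutant over control (horizontal axis) for all listed genes of the wider pathway list, by role (vertical axis) and mutant (colour), with filled points for the 10 genes and open points for the others. Most points lie left of 0, and in Psc Suz2 they spread between −7.65 (ru) and 1.52 (vn).

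Among the other genes of ligand processing, stet encodes another rhomboid protease, known from the germ line. In the Release 6 order 1 protein-coding gene lies between stet and rho, and 5 lie between ru and rho. It fell in the same 3 mutants as rho, from a low level: 1.94 CPM in Suz12 and 4.63 CPM in FRT2A discs, 2.39 CPM in discs labelled PH505 and 4.67 CPM in FRT19A discs, and 0.50 CPM in Psc Suz2 and 4.31 CPM in FRT42D discs. Log2 folds of stet in the authors' deposited tables were −1.25, −0.97 and −3.11 (edgeR adjusted p = 0.0102, 0.0172 and 1.45e-12). Among the 3 nearest protein-coding genes on each side of ru and of rho, no other gene was listed as lower in any table, and 1 of them (Ptp61F) has an identifier newer than any in the tables. The gene rho-4, on another rhomboid branch, was higher in the table labelled PH505 and in Psc Suz2 (0.55 and 0.76 in the authors' deposited tables). Star (S), which carries Spitz out of the endoplasmic reticulum, fell in Suz12 and in Psc Suz2 (−0.43 and −1.17 in the authors' deposited tables). So in Psc Suz2 ru, rho, stet and S were lower, while rho-4 and spi itself were higher.

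Genes with the most similar profile were sought among the 333 genes listed in all 4 tables, by the largest difference of log2 fold over the 4 mutants. For ru they were CG34377, which stayed within 0.39 of it in every mutant, CG14400 (within 0.75) and the photoreceptor receptor gene sev (within 0.78). Log2 folds of sev in the authors' deposited tables were −1.25, −1.74, −1.38 and −6.87 in Ez731, Suz12, the table labelled PH505 and Psc Suz2. For aos they were obst-A (within 0.28), mab-21 (0.29) and the neuronal adhesion gene Nrt (0.32). This is a description of 4 values, of which those of Ez731 and Suz12 share a control.

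Most listed values of the eye markers were lower in the mutant, as were most of those of the pathway genes chosen by name. Of the 27 listed values of these pathway genes, 22 were lower and 5 higher. The higher ones were vn in Ez731 and Psc Suz2, pyr in Ez731 and Suz12, and spi in Psc Suz2. The 8 photoreceptor markers with a comparable identifier (ato, sens, ro, sev, elav, gl, boss and svp) were lower in every mutant, with log2 folds in the authors' deposited tables between −1.57 and −0.68 in Ez731, −2.24 and −0.98 in Suz12, −1.38 and −0.76 in the table labelled PH505, and −6.87 and −1.98 in Psc Suz2. Their summed level was 493 CPM in Ez731 and 1050 CPM in FRT2A discs, 338 CPM in Suz12 and 1040 CPM in FRT2A discs, 574 CPM in discs labelled PH505 and 1200 CPM in FRT19A discs, and 72.8 CPM in Psc Suz2 and 1070 CPM in FRT42D discs. None was at 0, and the lowest was 0.257 CPM in Psc Suz2. The fall of ru in Psc Suz2 lay beyond all 8, those of ths, aos and rho lay inside their range, and those of Egfr and sty were smaller than any of them. There ro, boss and sens stood at 0.257, 0.29 and 0.588 CPM, each below ru at 0.61 CPM. Their FRT42D levels were only 19, 8.1 and 23.1 CPM, against 122 CPM for ru, which limits the fold they could show. In Ez731 and Suz12 the folds of ru (−0.89 and −1.43) lay inside the marker range, and in the table labelled PH505 (−1.54) beyond it. Of the 6 genes of eye disc identity, 6, 6, 4 and 5 were lower in Ez731, Suz12, the table labelled PH505 and Psc Suz2, and Optix was higher in the table labelled PH505 and in Psc Suz2 (0.52 and 0.40 in the authors' deposited tables). The part of photoreceptor number in the pathway values was not tested.

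**Figure D5:**
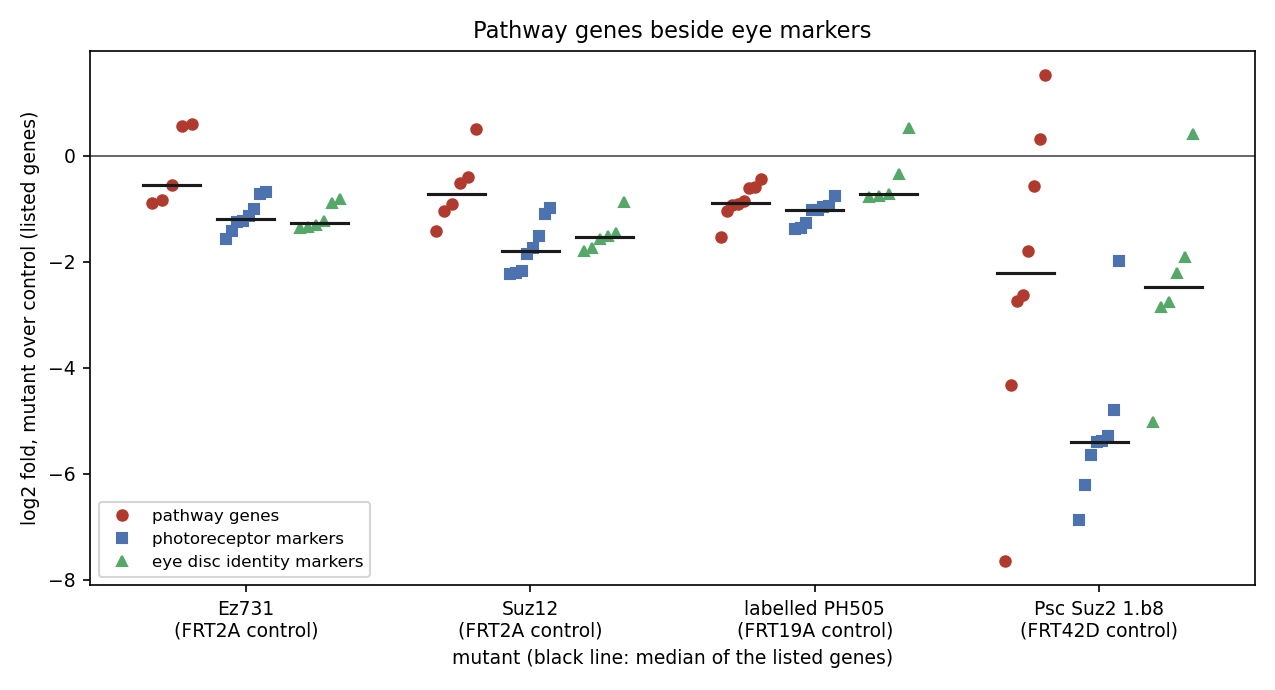
Deposited log2 folds of mutant over control (vertical axis) of the listed pathway genes (circles), photoreceptor markers (squares) and eye disc identity markers (triangles) in each mutant, with a black line at the median of each set. In Psc Suz2 the photoreceptor markers have a median of −5.40 and the pathway genes spread from ru at −7.65 to vn at 1.52.

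Tissue other than disc epithelium differed between the controls themselves. Summed over 5 listed fat body markers, the control level was 2430 CPM in FRT2A (by the Ez731 table) and 499 CPM in FRT19A discs, and over the 2 listed in Psc Suz2 it was 69 CPM in FRT42D discs. The mutant sums were 340 CPM in Ez731, 288 CPM in Suz12 (against 2400 CPM in FRT2A discs by that table), 52.5 CPM in discs labelled PH505 and 56.9 CPM in Psc Suz2. The wing disc genes vg and nub were higher in all 4 mutants, with log2 folds of vg of 1.24, 2.15, 4.43 and 3.80 in the authors' deposited tables. The part of these differences in the pathway values was not tested.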

How the data were processed

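RNA-seq of eye discs was compared between 4 mutants and their FRT controls. Per the submitters' processing notes, edgeR 2.6.2, TopHat2 2.0.8b and Bowtie2 2.1.0.0 were used on genome build BDGP5. No source used here says how replicates entered the test or whether counting used strand, and the p-values may measure technical spread only. Per the file headers, the authors deposited a log2 fold, a mean log2 CPM, a p-value and a false discovery rate for each gene under 5%.

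The number of genes tested is the most common value of false discovery rate times rank over p. The control level is 2 times the mean level (2 to the power of log2 CPM) divided by 1 plus the linear fold, and the mutant level is that times the fold, taking both groups as of equal weight. The SE is the fold over the normal quantile of its p. Symbols came from a table of FlyBase identifiers, which lacked 315 of 6774. Gene order came from the Release 6 annotation, another build than BDGP5, so no coordinate is given. The ChIP-seq regions were not used, since no source used here names their build.

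The 10 genes and all lists were chosen with earlier results of these data known, so no test was run on them and no p was adjusted over them alone. Named were all 10 genes, genes of the wider list where listed in at least 2 tables or changed at least 2-fold in any, which the rule allowed to be named (Ras85D, Raf, drk, Ptp61F and single markers were named after their values were seen), and the 3 closest profiles. Alternatives were a 1% false discovery rate, a 2-fold change, a mean expression no lower than the median of the table, and a turned PH505 table. Python 3.11.15, numpy 2.4.6, pandas 2.3.3, scipy 1.17.1 and matplotlib 3.10.9 were used. The steps were tested on simulated data.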

Additional observations from a re-analysis of the deposited data

Results flagged for a closer look

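The following genes were called in opposite directions in mutants that have separate controls. In each case the difference itself was not tested, and 1 sample stands behind each group. The log2 fold of pyr was higher in Ez731 than in the table labelled PH505 by 1.64 (SE 0.25) and higher in Suz12 than in that table by 1.56 (SE 0.26). For the tracheal FGF gene bnl, the fold in Suz12 minus that in Psc Suz2 was −1.35, and that of the table labelled PH505 minus Psc Suz2 was −1.04. Its lower calls there (edgeR adjusted p = 0.0111 in Suz12 and 0.0496 in the table labelled PH505) do not pass a 1% false discovery rate, at which neither difference would be one of opposite calls. For htl, the folds in Ez731, Suz12 and the table labelled PH505 minus that in Psc Suz2 were −1.89, −1.87 and −2.10. At 1% only the last remains a pair of opposite calls, since htl has an edgeR adjusted p of 0.013 in Ez731 and 0.0104 in Suz12. For sv, those in Suz12 and the table labelled PH505 minus Psc Suz2 were −2.11 and −1.94. For mirr, those in Ez731 and the table labelled PH505 minus Psc Suz2 were 2.01 and 1.99.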

How the results depend on the processing

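No paired analysis was possible because each group has 1 sample and no value per replicate, and for the same reason no replicate could be left out. At a 1% false discovery rate 26 of the 27 member calls passed, the exception being ths in Suz12, and the count of wider list genes higher in Suz12 was 1 in place of 2. At 2-fold or more, 10 of the 27 member calls were left. Members higher were then 0 in Ez731, 0 in Suz12 and 1 in Psc Suz2, and members lower 0 in Ez731, 2 in Suz12 and 2 in the table labelled PH505. The wider list then had 0, 0, 0 and 3 genes higher and 3, 7, 3 and 16 lower in Ez731, Suz12, the table labelled PH505 and Psc Suz2. When only genes whose mean expression reached the table's median were kept, 22 of the 27 member calls were left. The counts that moved by over 1.5 times were those of the table labelled PH505, with 5 members and 8 wider list genes lower, and of Psc Suz2, with 6 wider list genes higher. With the PH505 table turned, 8 members would be higher and 0 lower, and 19 wider list genes higher and 2 lower. The log2 folds would then be 1.54 for ru, 0.93 for rho, 0.92 for aos, 0.60 for Egfr, 0.61 for sty, 0.45 for pnt, 1.05 for pyr and 0.85 for ths. These alternatives change which genes count as called by their construction. An alternative added after the data were seen, which takes the midpoint of log levels, gave FRT2A levels that differed between the 2 tables by a median of 0.05 in place of 0.018. Depth is unknown, and genes that are not listed cannot in general be told from genes too low to be tested. For some members the shared FRT2A control gives a level. It was 73.5 CPM for rho and 54.8 CPM for ths, not listed in Ez731, and 27.4 CPM for vn, not listed in Suz12.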
